A study of Homo sapiens with 9 samples.

Results

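The subunits of the mitochondrial respiratory chain that are encoded in the nucleus were followed in HEK293 cells, a human embryonic kidney line, on 9 Affymetrix expression arrays. Members were all genes named alone by a probe set whose current symbol begins with NDUFA, NDUFB, NDUFC, NDUFS or NDUFV, with UQCR or ATP5, or with COX4 to COX8, together with the SDH genes and CYC1. Assembly factors (NDUFAF), pseudogenes and non-coding genes with such symbols were left out. This gave 78 genes, carried by 152 probe sets, of 19775 genes named in the table. Each gene was represented by its brightest probe set. After a filter on low signal 74 of the 78 remained among 14018 genes tested. There were 33 genes of complex I, 3 of complex II, 7 of complex III, 17 of complex IV (14 tested) and 18 of complex V (17 tested). NDUFS5, NDUFS8, NDUFC2 and UQCRH were measured only by probe sets that name several genes and were not used here.

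The cells of all 3 groups had been transiently transfected with human surfactant protein C (SP-C), a secreted lung protein that HEK293 cells do not normally make, so the controls carry a transgene too. WT cells received the wild-type protein and served as control, Ex4 cells a form without exon 4, and LQ cells a form with the L188Q substitution. There were 3 arrays a group. The labels do not say whether they come from separate cultures, so p-values measure only how far these arrays spread, and that spread may be technical. Transient transfection leaves a mix of cells with and without the transgene, and no untransfected group was analysed here.

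The respiratory chain passes electrons from NADH (complex I) and succinate (complex II) through ubiquinone to complex III, cytochrome c and complex IV, which reduces oxygen. Complexes I, III and IV pump protons, and complex V, the ATP synthase, uses the gradient to make ATP. Complexes I, III, IV and V are built from products of both genomes: mitochondrial DNA encodes a few core subunits, while all others are imported from the cytosol. Nuclear respiratory factor NRF1, the ETS factor GABPA and coactivators of the PGC-1 family are known regulators of the nuclear genes.

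The transfected gene and the arrays were checked first. On its brightest probe set SFTPC, the gene of SP-C, had signals of 173160 to 261955 in WT, 97630 to 169241 in Ex4 and 108963 to 132058 in LQ. On another of its 5 probe sets the Ex4 arrays reached only 28.7 to 914.4, against 158962 to 239964 in WT and 108292 to 126185 in LQ. All arrays had trimmed mean signals of 1493 to 1495, but their medians ran from 506.4 to 524.4 in WT, from 316.1 to 434.3 in Ex4 and from 303.9 to 371.8 in LQ. The median of the array was thus lower in every mutant array than in WT, at nearly the same trimmed mean. The ratio of 3' to 5' signal was 1.21 to 1.43 in WT, 0.956 to 1.22 in Ex4 and 1.06 to 1.09 in LQ for GAPDH. For ACTB it was 1.05 to 1.27, 1.15 to 1.48 and 1.15 to 1.23. The 7 markers of HEK293 cells (VIM, KRT8, KRT18, CDH2, NEFL, NEFM and PAX2) lay above the array median on at least 1 array each, with summed signals of 151954 to 193272 in WT, 142778 to 152944 in Ex4 and 149412 to 161373 in LQ. Markers of muscle, where other isoforms of the chain are used, summed to 1497 to 1686 in WT, 1223 to 1667 in Ex4 and 805 to 1210 in LQ, with 2 of 4 below the median on every array. Markers of alveolar type II cells summed to 4846 to 6530, 3721 to 4555 and 4251 to 5064 in the same order (1 of 7 below the median on every array), those of fibroblasts to 6721 to 8015, 4698 to 6012 and 3249 to 4381 (3 of 6), and those of blood cells to 2348 to 2928, 1329 to 1544 and 1264 to 1283 (2 of 5). The array medians were lower in the mutants too, but the sums did not follow them throughout. Those of HEK293 and alveolar type II markers reached higher in LQ than in Ex4, while the array medians did not. At a limma adjusted p under 0.05, 1 of 7 HEK293 markers and 1 of 2 tested fibroblast markers were lower in LQ, against 3.63% of all genes. The part of these differences in the values of the members was not tested.

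The common subunits were among the brightest transcripts of the array. Of the 78 members, 67 lay at or above percentile 90 of all probe sets by mean signal, and no tested member outside the tissue-restricted isoforms of complex IV lay below percentile 85.6. Signals of different probe sets are not levels of transcript that can be set against each other, and the percentile is given only to show how far the members lie above background. Within groups the members varied less than other genes: the median SD between arrays of a group was 0.25 for log2(signal + 16) over the 74 members, against 0.31 over all genes tested. The genes were not matched for signal in this comparison. A mean log2 signal under 13 was seen for 11 of the 74 members, but for 12033 of the 14018 genes.

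WT replicate 1 stood apart from the other WT arrays on these genes. It had the lowest signal of all 9 arrays for 29 of the 74 members (39.2%), against 12.7% of all genes, and the lowest of the 3 WT arrays for 60. For 9 members it was instead the highest of the WT arrays. Among these COX6C, NDUFA5, NDUFS4, SDHD, UQCRB, NDUFB3 and NDUFC1 had positive changes in both mutants. The others, ATP5F1E and COX6A2, had negative changes (-0.043 and -0.59 in Ex4, -0.26 and -0.43 in LQ). Over all tested probe sets the mean correlation of WT replicate 1 was 0.892 with the other WT arrays, 0.906 with Ex4 and 0.907 with LQ. Ex4 replicate 1 was the lowest of the 3 Ex4 arrays for 54 of the 74 members, and its mean correlation was 0.906 with its own group and 0.911 with WT.

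**Figure D1:**
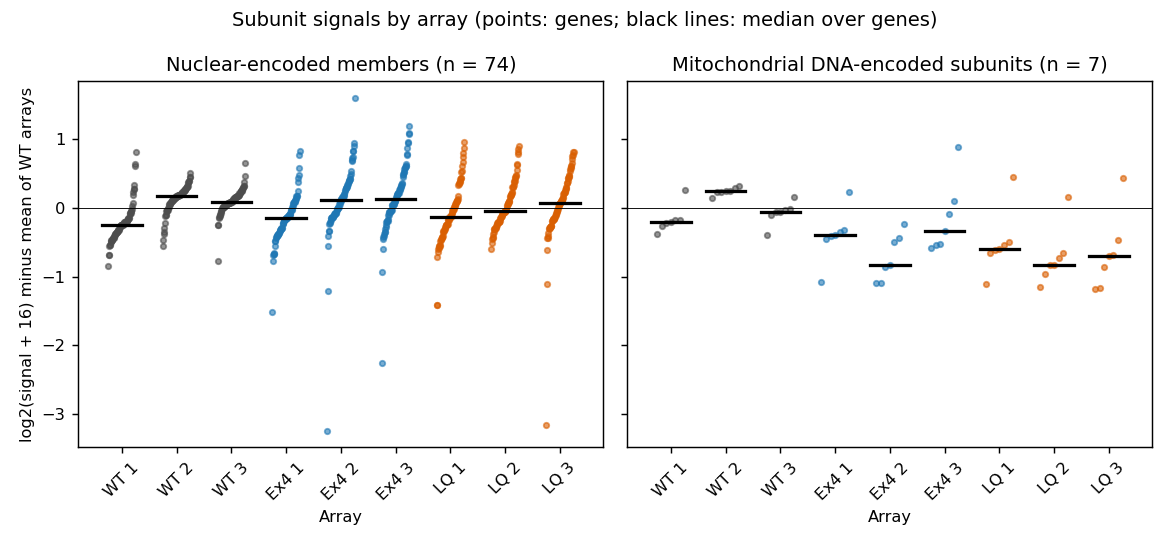
Signal of the 74 nuclear-encoded members (left) and 7 subunits encoded in mitochondrial DNA (right) on each array, as log2(signal + 16) minus the mean of the 3 WT arrays; points are genes and black lines the median over genes. The median of the nuclear-encoded members was -0.25 on WT replicate 1 and between -0.15 and 0.17 on the other 8 arrays, while the median of the mitochondrial DNA-encoded subunits was -0.34 or lower on every Ex4 and LQ array.

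Ex4 was compared with WT to find which subunits differ with the deletion. As a group the subunits sat close to WT, and no member passed the threshold. The median log2 change over the 74 members was 0.0052, with 37 positive and 37 negative, where the median over all genes tested was -0.079. A change within 0.3 either way was seen for 53 of the 74 (71.6%), against 43.3% of all genes. Most of those genes were dimmer than the members, and the shares were not compared at like signal. None of the 74 passed in limma at a Benjamini-Hochberg adjusted p under 0.05, and the background was the same, since 0% of the 14018 genes passed. At an unadjusted p under 0.05 there were 12 members (16.2%), 10 positive and 2 negative, and 3812 genes (27.2%). In RNA from whole cultures, fewer cells of a type and less RNA per cell cannot be told apart.

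LQ was compared with WT to ask the same of the substitution. COX6C and NDUFA5 rose and no member fell, so 2 of 74 passed (2.70%), against a background of 7.32% of all genes, of which 3.69% passed as higher and 3.63% as lower. The median log2 change of the members was -0.054, with 33 positive and 41 negative, and that of all genes -0.091. A change within 0.3 either way was seen for 47 members (63.5%) and for 39.8% of all genes, again not matched for signal. With the mean of both mutants against WT, ATP5PB passed as well, so that 3 of 74 rose and none fell, where 12.9% of all genes passed, 6.22% as higher and 6.72% as lower. The share of members that passed was below that of all genes in both comparisons. The adjustment runs over all tested probe sets, and 14 members (18.9%) lay at an unadjusted p under 0.05 in LQ, 12 positive and 2 negative, against 4288 genes (30.6%).

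These counts moved with single arrays, and so did those of all genes. For Ex4 6 members passed without WT replicate 1 (8.11%, against 13.8% of all genes) and 8 without Ex4 replicate 1 (10.8%, against 13.8%). Those without WT replicate 1 were COX6C, NDUFA5, NDUFS4 and UQCRB as higher and COX4I1 and NDUFB11 as lower. Those without Ex4 replicate 1 were ATP5MG, ATP5MJ, COX6C, NDUFA1, NDUFB3, NDUFC1 and UQCRQ as higher and COX6B2 as lower. For LQ 12 passed without WT replicate 1, 6 higher and 6 lower (16.2%, against 17.8%), 6 without Ex4 replicate 1 (8.11%, against 14%) and 1 without Ex4 replicate 3 (1.35%, against 5.91%). Without WT replicate 2, WT replicate 3 or any LQ array none passed in LQ, where 0.0214% to 0.114% of all genes did. For the mean of both mutants 12 passed without WT replicate 1 (16.2%, against 22.3%) and 12 without Ex4 replicate 1 (16.2%, against 23.1%). The count there was 1 without Ex4 replicate 2, Ex4 replicate 3, LQ replicate 1 or LQ replicate 2 (3.16% to 4.4% of all genes), and 0 without WT replicate 2, WT replicate 3 or LQ replicate 3 (0.0499% to 1.07%).

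**Figure D2:**
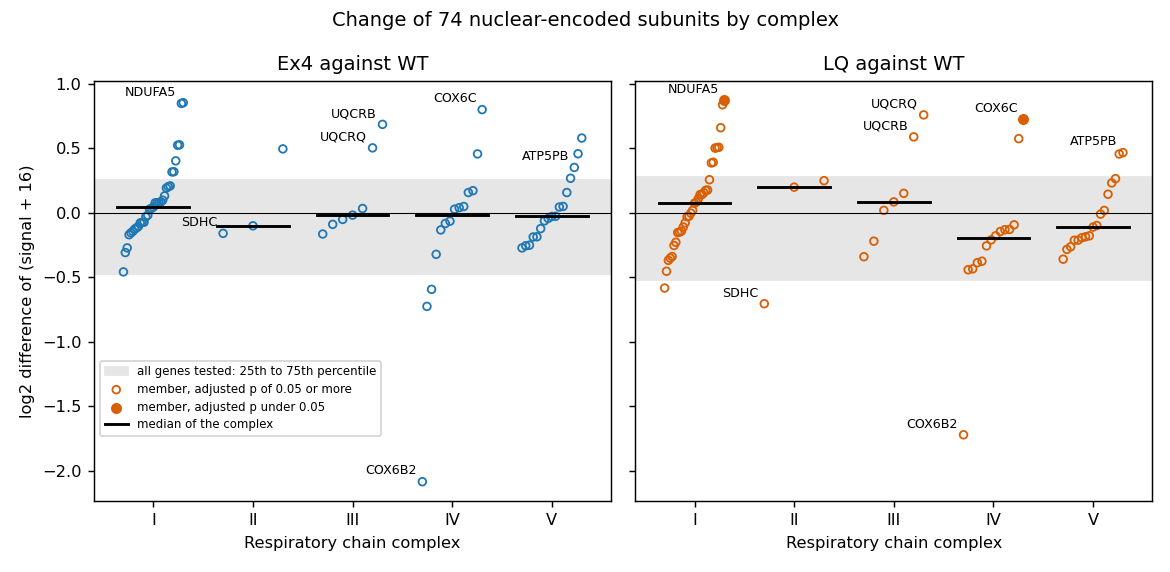
Log2 difference of (signal + 16) from WT for the 74 tested members, by complex, in Ex4 (left) and LQ (right); open circles are members that did not pass, filled circles members with an adjusted p under 0.05, black lines medians of a complex, and the grey band the middle 50% of all genes tested. Only COX6C and NDUFA5 are filled, both in LQ; most members lie inside the grey band, and COX6B2 lies far below it in both mutants.

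COX6C, a membrane-spanning accessory subunit of complex IV, was measured by 1 probe set; its gene is on chromosome 8. Its signal was 18634, 14631 and 14752 on the WT arrays 1 to 3, then 21487, 29618 and 33468 on the Ex4 arrays and 27615, 27311 and 24247 on the LQ arrays. Every mutant array lay above every WT array, and the closest approach was between WT replicate 1 and Ex4 replicate 1. The log2 change was 0.80 ± 0.18 in Ex4 (SE, limma adjusted p = 0.077; 0.011 without WT replicate 1 and 0.0061 without Ex4 replicate 1) and 0.73 ± 0.18 in LQ (adjusted p = 0.039), or 1.66-fold in LQ. For both mutants together it was 0.76 ± 0.16 (adjusted p = 0.022). In LQ the call was lost after quantile normalization (0.59, adjusted p = 0.067), without the variance trend (adjusted p = 0.088) and without the filter (adjusted p = 0.051); leaving out any LQ array or WT replicate 2 or 3 also ended it, with log2 changes from 0.67 to 0.79.

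NDUFA5, an accessory subunit of the arm of complex I that reaches into the matrix and binds ubiquinone, lies on chromosome 7. Its signal was 7034, 3134 and 4461 in WT, 8177, 8918 and 7921 in Ex4, and 8954, 8384 and 8120 in LQ. The mutant arrays lay close together and all above WT, whose own arrays spread most and of which replicate 1 was highest. The log2 change was 0.85 ± 0.24 in Ex4 (limma adjusted p = 0.088; 0.0035 without WT replicate 1, at 1.15) and 0.87 ± 0.24 in LQ (adjusted p = 0.049), or 1.83-fold in LQ. The second probe set of the gene was dim, at 95.2 to 402.5 over the 9 arrays, and gave 0.068 and 0.018. The LQ call passed under 6 of 12 other settings. It ended after quantile normalization (0.73, adjusted p = 0.10), with a pseudocount of 1 (adjusted p = 0.050), without the filter (0.059) or the variance trend (0.097), in a fit of the WT and LQ arrays alone (0.054), and with the mean of both probe sets (0.45, adjusted p = 0.29). It held in only 2 of 9 fits that left out an array: without WT replicate 2 the change was 0.60 (adjusted p = 0.14) and without WT replicate 1 it was 1.18 (adjusted p = 0.0028).

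ATP5PB, subunit b of the stalk that holds the catalytic head of the ATP synthase in place, lies on chromosome 1. Its signal was 36795, 36182 and 38418 in WT, 44058, 45512 and 53066 in Ex4, and 53099, 45777 and 55636 in LQ. The WT arrays were within a narrow range and all mutant arrays lay above them. The log2 change was 0.35 ± 0.14 in Ex4 (limma adjusted p = 0.15), 0.47 ± 0.14 in LQ (adjusted p = 0.058; 0.047 without WT replicate 1 and 0.046 without Ex4 replicate 1) and 0.41 ± 0.12 for both mutants together (adjusted p = 0.046). That call was lost when any array other than WT replicate 1 or Ex4 replicate 1 was left out. After quantile normalization it was the only member to pass in LQ (0.52, adjusted p = 0.034). Its other probe set ran the other way at much lower signal, with 372.4 to 978.3 over the 9 arrays and log2 changes of -0.19 in Ex4 and -0.83 in LQ (adjusted p = 0.10). The mean of both probe sets gave -0.052 for both mutants together (adjusted p = 0.79), so the direction rests on the brighter one.

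**Figure D3:**
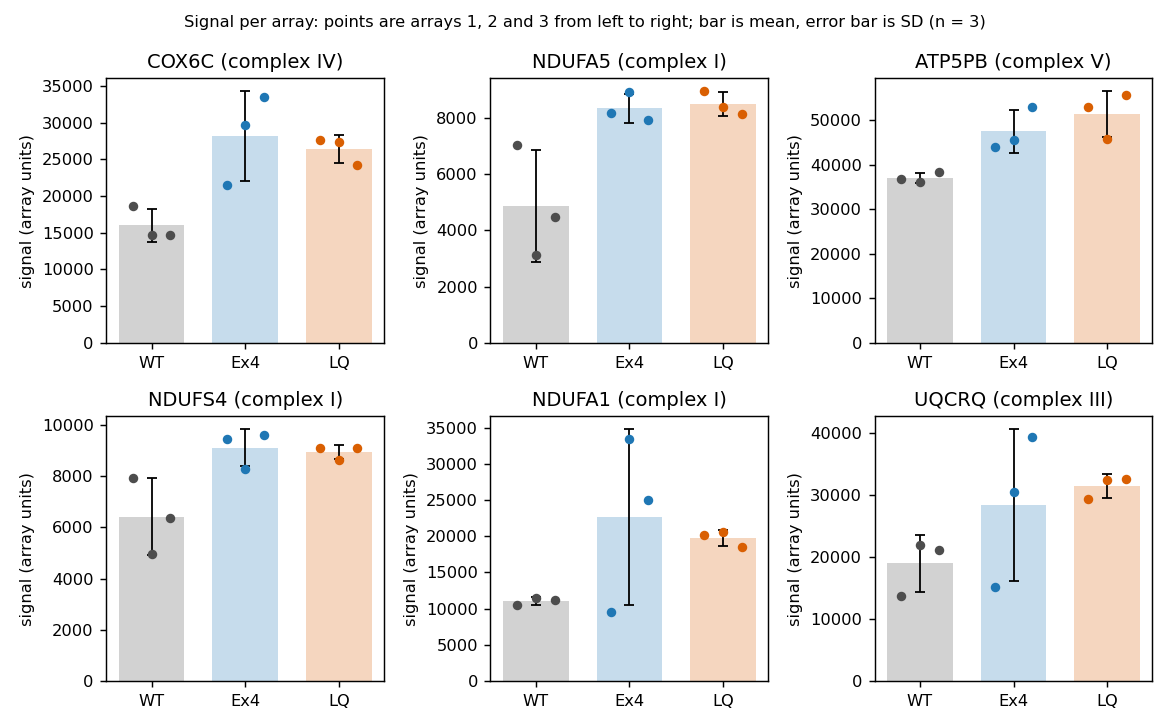
Signal of 6 members on each array in linear array units; points are arrays 1, 2 and 3 of a group from left to right, bars the mean and error bars the SD (n = 3). COX6C, NDUFA5, ATP5PB and NDUFS4 were higher on every mutant array than on any WT array, while Ex4 replicate 1 lay within or below the WT range for NDUFA1 and UQCRQ.

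Whether or not a member passed, the arrays of LQ lay wholly above those of WT for 14 of 74 and wholly below for 5, where 15.7% and 23.2% of all genes did so. The 14 were COX6C, NDUFA5, ATP5PB, NDUFS4, NDUFA1, NDUFA12, NDUFC1, NDUFS3, NDUFS6, NDUFS7, UQCRQ, COX8A, ATP5MG and ATP5MJ, and the 5 were ATP5F1E, COX6B1, COX6B2, NDUFA3 and SDHC. In Ex4 the arrays lay wholly above WT for 6 of 74 (COX6C, NDUFA5, ATP5PB, NDUFS4, SDHD and ATP5MG) and wholly below for 1 (COX6B2), against 9.07% and 14.9% of all genes. The share above was near the background in both mutants and the share below was under it.

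Beside these genes the promoter sequences show which of the known regulator motifs lie near the start of members that rose, of members whose arrays separated, and of members whose arrays overlapped. The 250 bases before the transcript start were read for 66 of the 78 members from RefSeq (GRCh38.p14) and searched on both strands for GCGCA followed by any base and GCGC (NRF1), CCGGAAG (GABPA), AANATGGC (YY1) and TNAAGGTCA (estrogen-related receptor alpha); the motifs do not overlap in the stretches printed. The NRF1 letters were found in 14 of 66 members (21.2%) and in 5.53% of all 27305 promoters of the table, or 7.65% of the 15843 of protein-coding genes. The GABPA letters were in 15 members (22.7%), against 8.82% and 11.8%. The YY1 letters were in 3 members (4.55%), against 3.91% and 3.65%, and the receptor letters in 1 (1.52%), against 0.850% and 0.562%. Of the 13 members in the search whose LQ arrays all lay above WT, 2 held the NRF1 letters and 4 the GABPA letters; of the other 53 it was 12 and 11. A match is a description of letters and not a binding site. Only 1 start was read for each gene, which for 62 of the 66 members was the gene start in RefSeq. Other starts were not searched, and which start gives the measured transcript was not analysed. Capitals mark the motifs in the following sequences, each read 5′ to 3′ in the direction of transcription and ending at the base before the start. NDUFA5 (chr7:123601652-123601901, minus strand) and ATP5PB (chr1:111449214-111449463, plus strand), which passed, held none of the letters in the stretch read. COX6C, which passed too, was not among the 66 members read, so nothing is known here of its promoter. SDHD (chr11:112086623-112086872, plus) held NRF1 and GABPA letters and UQCRQ (chr5:132866392-132866641, plus) GABPA letters. SDHA (chr5:218070-218319, plus), whose groups overlapped, held the NRF1 letters 4 times, 10 to 166 bases before the start, and NDUFB4 (chr3:120596086-120596335, plus), whose groups overlapped too, held NRF1 letters 2 times and the receptor letters once.
NDUFA5: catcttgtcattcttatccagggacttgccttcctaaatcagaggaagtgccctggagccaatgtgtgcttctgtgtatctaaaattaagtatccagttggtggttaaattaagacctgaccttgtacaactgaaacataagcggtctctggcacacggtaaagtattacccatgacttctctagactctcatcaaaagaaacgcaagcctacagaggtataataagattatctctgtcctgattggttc
ATP5PB: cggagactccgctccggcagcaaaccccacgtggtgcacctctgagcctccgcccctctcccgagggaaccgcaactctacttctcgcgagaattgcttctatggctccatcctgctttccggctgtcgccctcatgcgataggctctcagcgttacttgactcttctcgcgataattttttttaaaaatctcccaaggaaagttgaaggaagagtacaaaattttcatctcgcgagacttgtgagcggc
SDHD: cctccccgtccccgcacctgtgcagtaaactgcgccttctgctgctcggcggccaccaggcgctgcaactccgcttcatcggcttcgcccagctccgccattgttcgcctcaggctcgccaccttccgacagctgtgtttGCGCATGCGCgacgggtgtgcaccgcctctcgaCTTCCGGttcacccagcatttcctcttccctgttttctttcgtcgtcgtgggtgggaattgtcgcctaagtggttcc
UQCRQ: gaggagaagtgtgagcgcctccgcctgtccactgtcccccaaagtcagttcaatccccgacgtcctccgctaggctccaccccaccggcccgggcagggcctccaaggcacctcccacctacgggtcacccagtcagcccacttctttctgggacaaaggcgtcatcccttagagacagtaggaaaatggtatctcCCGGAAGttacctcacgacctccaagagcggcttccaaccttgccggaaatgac
SDHA: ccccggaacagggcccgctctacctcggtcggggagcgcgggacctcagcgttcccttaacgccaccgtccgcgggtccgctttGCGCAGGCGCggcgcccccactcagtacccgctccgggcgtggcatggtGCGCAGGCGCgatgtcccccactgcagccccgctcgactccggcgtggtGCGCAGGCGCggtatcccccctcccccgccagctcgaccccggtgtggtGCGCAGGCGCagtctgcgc
NDUFB4: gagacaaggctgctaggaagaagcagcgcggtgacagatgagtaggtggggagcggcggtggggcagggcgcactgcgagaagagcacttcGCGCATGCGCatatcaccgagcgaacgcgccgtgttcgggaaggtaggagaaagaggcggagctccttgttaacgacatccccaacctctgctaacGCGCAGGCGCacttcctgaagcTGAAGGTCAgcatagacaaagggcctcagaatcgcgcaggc

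Complex I, the NADH dehydrogenase, held the largest number of members. Of its 33 subunits 19 had a positive change in Ex4 and 18 in LQ, with median log2 changes of 0.045 and 0.075. The N module, which oxidises NADH, had medians of 0.14 and 0.16 over 8 genes, and the Q module, which reduces ubiquinone, 0.15 and 0.28 over 6. The proximal membrane arm had -0.018 and 0.083 over 7 genes, and the distal arm, made of the NDUFB subunits and NDUFAB1, 0.032 and -0.11 over 12. No difference between modules was tested. The brightest probe sets belonged to NDUFB2, whose means (± SD, n = 3) in WT, Ex4 and LQ were 27495 ± 4058, 27998 ± 1933 and 29481 ± 1953, and to NDUFB1, with 25876 ± 3777, 27284 ± 3788 and 28731 ± 2894. Their mutant means lay within 1 SD of the WT mean, and the arrays of the groups overlapped.

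NDUFA1, a small subunit at the junction of the membrane and matrix arms, had signals of 10475, 11455 and 11158 in WT, 9463, 33420 and 25072 in Ex4, and 20148, 20526 and 18546 in LQ. The LQ arrays lay close together and all above WT, whereas Ex4 replicate 1 was below WT and the other Ex4 arrays were the highest of all. Its log2 change, 0.85 ± 0.34 in Ex4 and 0.84 ± 0.34 in LQ, did not pass (limma adjusted p = 0.15 and 0.13). Without Ex4 replicate 1 NDUFA1 passed in both, at 1.39 in Ex4 (adjusted p = 0.0013) and 0.84 in LQ (adjusted p = 0.0079). NDUFS4, an accessory subunit of the N module, had 7936, 4949 and 6377 in WT, 9434, 8282 and 9627 in Ex4, and 9087, 8620 and 9110 in LQ. Its groups did not overlap, with log2 changes of 0.53 ± 0.18 and 0.50 ± 0.18 (adjusted p = 0.11 and 0.096), and 0.52 ± 0.15 for both mutants together (adjusted p = 0.051). The changes of NDUFS6 and NDUFA12, which also belong to the N module, were 0.66 ± 0.22 and 0.39 ± 0.14 in LQ (adjusted p = 0.080 and 0.090).

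The most negative changes in complex I were those of membrane arm subunits. NDUFB11 had signals of 17307, 30831 and 31018 in WT, 17352, 19161 and 19179 in Ex4, and 17313, 17787 and 20928 in LQ. The mutant arrays were level with WT replicate 1 and below WT replicates 2 and 3. Its log2 change was -0.46 ± 0.21 in Ex4 and -0.45 ± 0.21 in LQ (limma adjusted p = 0.20 and 0.17). Without WT replicate 1 NDUFB11 passed as lower in both, at -0.74 and -0.73 (adjusted p = 0.0086 and 0.0074). NDUFA3 had 11618, 13711 and 10734 in WT and 7303, 8854 and 7845 in LQ, a log2 change of -0.58 ± 0.29 (adjusted p = 0.20). In Ex4 its arrays read 9594, 9442 and 23158, so that the change of 0.098 turned to -0.33 without replicate 3. NDUFS1, the largest iron-sulphur subunit of the N module, was at -0.14 and -0.23 on its representative probe set. On 2 of its other 4 probe sets it fell in LQ, with log2 changes of -2.16 and -2.43 (adjusted p = 0.033 and 0.029), and these read 178 to 758 in LQ against 1118 to 3953 in WT. Which transcripts those probe sets match was not analysed here.

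Complex II, the succinate dehydrogenase, is encoded by the nucleus alone. SDHA, the flavoprotein that oxidises succinate, had signals of 14035, 12098 and 19368 in WT, 15082, 15909 and 11117 in Ex4, and 16062, 17105 and 20132 in LQ, with overlap throughout. Its log2 change was -0.10 ± 0.20 and 0.25 ± 0.20 (limma adjusted p = 0.79 and 0.43). SDHC and SDHD anchor the enzyme in the inner membrane and bind ubiquinone. SDHD had 10321, 8807 and 8298 in WT and 12638, 12522 and 13399 in Ex4, all above WT, a log2 change of 0.50 ± 0.17 (adjusted p = 0.12). In LQ replicate 3 was at 8139, below WT, and replicates 1 and 2 at 11808 and 11887, a change of 0.20 ± 0.17. SDHC ran the other way in LQ on its representative probe set, with 5479, 6139 and 3806 against 6589, 10090 and 8378 in WT. The change was -0.71 ± 0.28 (limma adjusted p = 0.12). The 5 other tested probe sets of SDHC ran from -0.60 to 0.30 in LQ, and 2 of them had the opposite sign. In Ex4 the representative probe set read 5086, 11041 and 7116, which spans the WT range.

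Complex III passes electrons from ubiquinol to cytochrome c. Its 7 subunits had medians of -0.018 in Ex4 and 0.085 in LQ. UQCRB and UQCRQ, small accessory subunits, had the largest positive changes. UQCRB read 17564, 8711 and 9522 in WT, 19218, 18380 and 17222 in Ex4, and 18873, 15324 and 17187 in LQ. WT replicate 1 was level with the mutants and the other WT arrays were far lower, so that its log2 changes of 0.69 ± 0.23 and 0.59 ± 0.23 did not pass (limma adjusted p = 0.11 and 0.12). Without WT replicate 1 UQCRB passed in both, at 1.0 and 0.90 (adjusted p = 0.0026 and 0.0036). There 13.8% of all genes passed in Ex4 and 17.8% in LQ. It passed in only 1 of 9 fits that left out an array, and the lowest changes over these fits were 0.50 and 0.40. The 3 other tested probe sets of UQCRB ran from -1.0 to 0.53 in Ex4 and from -0.15 to 0.54 in LQ. In each mutant 1 of them had the opposite sign. UQCRQ read 13750, 21933 and 21184 in WT, 15143, 30551 and 39422 in Ex4, and 29292, 32473 and 32658 in LQ. All LQ arrays and Ex4 replicates 2 and 3 were above WT, while Ex4 replicate 1 was not. In limma the log2 change came to 0.50 ± 0.29 in Ex4 (adjusted p = 0.30) and 0.76 ± 0.29 in LQ (adjusted p = 0.12). Without Ex4 replicate 1 UQCRQ passed in both, at 0.90 and 0.76 (adjusted p = 0.021 and 0.028). The core subunits UQCRC1 and UQCRC2 and the cytochrome CYC1 had changes of -0.16 to 0.15, with no call. The bright UQCR10, with means of 33014 ± 6907, 31830 ± 6945 and 27984 ± 2845 in WT, Ex4 and LQ (SD, n = 3), had changes of -0.051 and -0.22. UQCR11 had the largest negative change in LQ, at -0.34 ± 0.23 (adjusted p = 0.35), and UQCRC1 in Ex4, at -0.16 ± 0.15.

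Complex IV, cytochrome c oxidase, has the largest number of paralogues that replace each other by tissue. Of its 14 tested genes 7 had a positive change in Ex4 and only COX6C and COX8A in LQ, and the median in LQ was -0.19. After median-centring 13 of 14 were positive in LQ, with a median of 0.39. The 11 common subunits alone had medians of 0.040 and -0.14. COX8A read 14350, 23456 and 23624 in WT, 19608, 35310 and 29748 in Ex4, and 27006, 31039 and 31422 in LQ, a log2 change in LQ of 0.58 ± 0.24 (limma adjusted p = 0.13). The brightest were COX6A1, with means of 63825 ± 15954, 64292 ± 11957 and 57414 ± 8971, and COX4I1, with 60630 ± 15976, 47383 ± 4550 and 49531 ± 3838 (SD, n = 3). COX4I1 read 42183 on WT replicate 1 against 69771 and 69937 on the others, and its changes were -0.32 ± 0.19 and -0.26 ± 0.19 (adjusted p = 0.31 and 0.39). Without WT replicate 1 COX4I1 passed as lower in both, at -0.56 and -0.50 (adjusted p = 0.024 and 0.030), but the brightest of its probe sets with no suffix for shared sequence gave 0.60 and 0.93. COX6B1 had -0.064 and -0.39, COX7A2 -0.13 and -0.38, COX7A2L 0.17 and -0.093, and COX7B 0.16 and -0.14, with no call. Without WT replicate 1 COX7A2 passed in LQ, at -0.59 (adjusted p = 0.029).

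The isoforms of complex IV that are restricted to heart and skeletal muscle, lung or testis were dim. COX7A1, COX7B2 and COX8C lay below the array median on all 9 arrays and were not tested. COX4I2 read 663.1 to 1276 in WT, 315.6 to 857.0 in Ex4 and 336.9 to 974.4 in LQ, and its changes were -0.73 and -0.44. COX6A2 read 313.5 to 981.4, 229.0 to 714.7 and 369.7 to 441.6, with changes of -0.59 and -0.43. The groups overlapped for both. COX6B2, the testis form of COX6B1, read 593, 635 and 858 in WT, 397, 58.4 and 131 in Ex4, and 249, 445 and 62.9 in LQ, so that all mutant arrays were below WT. Its log2 change was -2.09 ± 0.72 in Ex4 and -1.72 ± 0.72 in LQ (limma adjusted p = 0.12 and 0.14), and at this signal it was below the array median on 5 arrays. It passed in Ex4 without Ex4 replicate 1, at -2.75 (adjusted p = 0.030), and with array weights (adjusted p = 0.048).

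Complex V showed small changes, with medians of -0.028 and -0.11 over 17 genes, 14 of them within 0.3 of WT in each mutant. The 5 subunits of the catalytic F1 head ranged from -0.27 to -0.027 in Ex4 and from -0.28 to 0.019 in LQ. ATP5F1A, the alpha subunit, was the brightest, with means of 68484 ± 8266, 65399 ± 4782 and 67725 ± 3277 in WT, Ex4 and LQ (SD, n = 3), followed by ATP5MK with 57222 ± 8351, 55921 ± 5659 and 49048 ± 1452. ATP5F1E, the epsilon subunit, read 38413, 33971 and 37476 in WT and 33372, 28780 and 29425 in LQ, which did not overlap, although the change of -0.26 ± 0.14 did not pass (limma adjusted p = 0.22). ATP5F1D had the largest negative change of complex V in Ex4, at -0.27 ± 0.25. ATP5MJ and ATP5MG, small subunits of the membrane part, had positive changes of 0.58 ± 0.21 and 0.46 ± 0.17 in Ex4, and 0.46 ± 0.21 and 0.23 ± 0.17 in LQ, with no call. Without Ex4 replicate 1 ATP5MJ passed in Ex4, at 0.84 (adjusted p = 0.013). ATP5MC1, ATP5MC2 and ATP5MC3 encode the same mature c subunit of the rotor ring. They had -0.26, 0.27 and -0.19 in Ex4 and -0.36, 0.27 and -0.19 in LQ, all with adjusted p above 0.15. Without WT replicate 1 ATP5MC1 passed in LQ, at -0.50 (adjusted p = 0.046). ATP5IF1, the protein that inhibits the synthase when it runs in reverse, had means of 11203 ± 1258, 9894 ± 1603 and 10444 ± 799 and changes of -0.19 and -0.098. ATP5MF was represented only by a probe set below the array median on all 9 arrays.

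LQ was set against Ex4 to test whether the mutants differ from each other. No member and no gene passed (0% of 14018 genes in limma), and 64 of 74 members lay within 0.3 of zero. At an unadjusted p under 0.05 there were 2 members and 588 genes. Both members were lower in LQ: NDUFA3, at -0.68 ± 0.29, and COX7B, at -0.30 ± 0.13. Because both mutants were compared with the same 3 WT arrays, their changes from WT are not independent. For COX6C the difference between mutants was -0.073 ± 0.18, for NDUFA5 0.026 ± 0.24 and for ATP5PB 0.12 ± 0.14.

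The size of these changes depends on how the arrays are set to a common scale, since the array medians differ between the groups. When every array was centred on its own median, the median of the members became 0.49 in Ex4 and 0.53 in LQ, with 71 of 74 positive in each, and that of all genes 0.41 and 0.49. Then 14 members passed as higher in Ex4, where 18.5% of all genes did (18.9% of members), and none as lower (0.842% of genes). In LQ 26 members passed as higher (35.1%, against 28.9% of all genes) and none as lower (1.21%). With quantile normalization no member passed in Ex4 (0% of genes higher and 0% lower), and in LQ ATP5PB passed as higher and none as lower (1.87% and 1.54% of genes). The medians of the members were then -0.059 and -0.10, and those of all genes -0.0099 and -0.0040. Set against the median of all genes under the same scaling, the members' median in Ex4 was 0.085 higher as deposited, 0.085 higher after centring and 0.049 lower after quantile normalization. In LQ it was 0.038 higher, 0.038 higher and 0.10 lower. The side on which the members lay thus changed with the scaling. It also changed with the level of the genes they are set against. Among genes with a mean log2 signal of 14 or more, the 37 members had a median as deposited of 0.028 in Ex4 and -0.027 in LQ, and all 748 genes of that level 0.041 and 0.028. At 13 to 14 the 26 members had 0.016 and -0.0054, and the 1237 genes 0.15 and 0.18. Under 13 the 11 members had -0.16 and -0.36, and the 12033 genes -0.13 and -0.14. Within each level the members' median was thus below that of all genes.

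**Figure D4:**
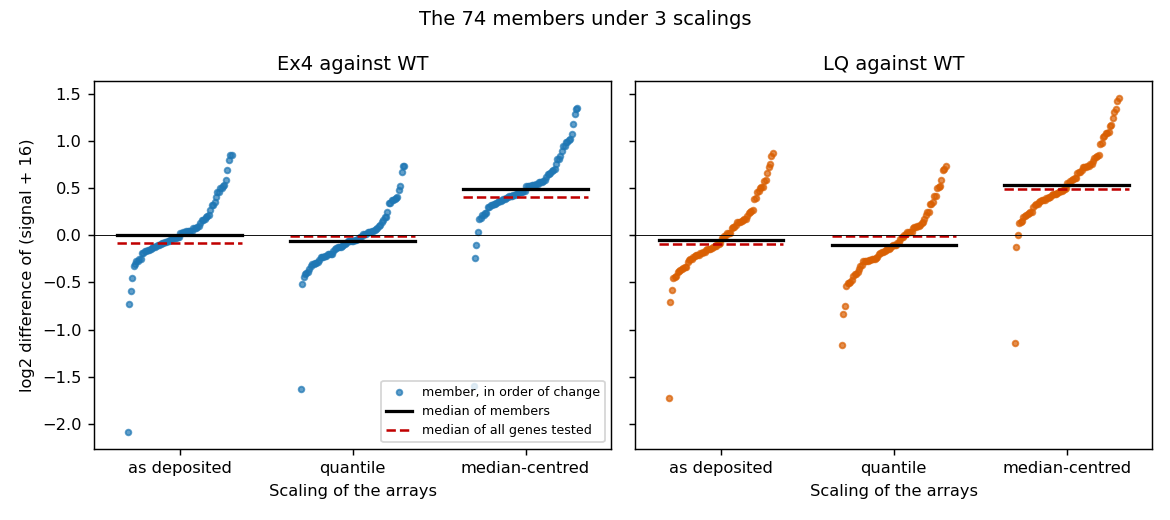
Log2 difference from WT of the 74 members in Ex4 (left) and LQ (right) under 3 scalings of the arrays; points are members in order of change, black lines their median and red dashed lines the median of all genes tested. Centring on the array median lifts members and all genes together, to 0.49 and 0.41 in Ex4 and to 0.53 and 0.49 in LQ.

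Other probe sets of the same genes did not always move with the representative. Of 60 other tested probe sets of members, 22 had the opposite sign in Ex4 and 21 in LQ. They were dimmer, with a median log2 signal of 10.55 against 14.01 for the representatives. None passed as higher, and 3 passed as lower in LQ: the 2 of NDUFS1 described above and the dimmer one of NDUFB10, which was at -0.79 (limma adjusted p = 0.029) while the brighter probe set of that gene was at -0.15.

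Subunits encoded in mitochondrial DNA are partners of the members in complexes I, III, IV and V, and their signals lay lower in the mutants. Of 13 such genes 7 had a probe set naming them alone, and 6 of the 7 were negative in each mutant, with medians of -0.53 in Ex4 and -0.71 in LQ. In LQ 4 of 7 fell: COX3 by 1.15, COX1 by 0.87, ATP6 by 0.83 and ND2 by 0.71 on the log2 scale (limma adjusted p = 0.020, 0.036, 0.028 and 0.044). Of all genes 3.63% passed as lower in LQ. The representative probe sets of these 4 genes all carry a suffix for shared sequence. With probe sets of no such suffix 4 genes of this list were tested. Of these 1 passed as lower in LQ, against 6.98% of all genes, higher or lower. COX3, a core subunit of complex IV, read 19383, 29688 and 28395 in WT, 11960, 18719 and 16917 in Ex4, and 11711, 11458 and 11141 in LQ, with no overlap. In Ex4 none passed with all arrays, but 4 passed as lower without WT replicate 1 and 2 without Ex4 replicate 1. In each of these fits 13.8% of all genes passed, higher or lower. In LQ none passed without WT replicate 2, WT replicate 3 or any LQ array (0.0214% to 0.114% of all genes). Without WT replicate 1, 6 passed in LQ, against 17.8% of all genes. ND6 was at 0.29 and 0.34. These falls depended on the scaling, with medians in LQ of -0.13 after quantile normalization and after centring. With quantile normalization 1 of 7 passed in LQ, against 3.41% of all genes. With centring none passed as lower (1.21% of all genes) and 1 as higher (28.9%). The difference between these genes and the nuclear-encoded members was not tested.

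Of 51 assembly factors, which help build the complexes without being part of them, 50 were tested and 2 rose in LQ: NDUFAF7, a methyltransferase that acts on complex I, by 0.70 ± 0.16, and TTC19, a factor of complex III, by 0.59 ± 0.16 (limma adjusted p = 0.033 and 0.048). Of all genes 3.69% passed as higher in LQ. The median of the assembly factors was 0.023 in Ex4 and 0.081 in LQ, with no call in Ex4. TMEM126B, of the complex I assembly complex, passed with all arrays in the mean of both mutants, at 0.56 ± 0.15 (adjusted p = 0.037), and its probe set without the suffix for shared sequence gave -0.37. Of 18 electron carriers and enzymes that feed the ubiquinone pool, 2 rose in LQ, against the same 3.69% of all genes. CYCS, which carries electrons from complex III to complex IV, read 42718, 38232 and 34224 in WT, 52464, 54046 and 58158 in Ex4, and 58274, 54402 and 55970 in LQ, a change of 0.56 ± 0.13 (adjusted p = 0.037), and PDSS1, which makes the ubiquinone side chain, rose by 0.61 ± 0.15 (adjusted p = 0.041). The medians of that list were -0.019 and 0.058.

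Of 14 regulators, 12 were tested and 2 rose in LQ, against 3.69% of all genes, with list medians of 0.13 and 0.22. TFAM, which packages and helps transcribe mitochondrial DNA, read 8882, 5544 and 5032 in WT, 10408, 11659 and 12691 in Ex4, and 10868, 11185 and 9870 in LQ, a change of 0.76 ± 0.20 (limma adjusted p = 0.047). TFB2M, a mitochondrial transcription factor, rose by 0.75 ± 0.19 (adjusted p = 0.040). NRF1 was at -0.46 and -0.37, GABPA at 0.39 and 0.48 and YY1 at 0.37 and 0.26, with no call, and PPARGC1A was too dim to be tested. Of 13 enzymes of the tricarboxylic acid cycle, which supplies the chain with NADH and succinate, 11 were tested. None passed in either mutant, where 0% of all genes passed in Ex4 and 7.32% in LQ. The largest changes in LQ were 0.51 for SUCLA2 and -0.35 for DLD. The calls of NDUFAF7, TTC19, CYCS, PDSS1, TFAM and TFB2M in LQ were each lost without WT replicate 2, WT replicate 3 or any LQ array, and those of TTC19 and TFAM also without Ex4 replicate 2 or Ex4 replicate 3. The call of TMEM126B in the mean of both mutants was lost without WT replicate 2, WT replicate 3, Ex4 replicate 3 or any LQ array. Under other settings the LQ call held in 9 of 11 for NDUFAF7, 8 of 12 for TTC19 and 9 of 12 for CYCS. It held in 8 of 11 for PDSS1, 7 of 12 for TFAM and 9 of 12 for TFB2M. The limma adjusted p of CYCS in LQ reached 0.62 among these settings. For TMEM126B in the mean of both mutants 7 of 11 settings passed. In Ex4, without WT replicate 1, TFAM passed at 1.13 (limma adjusted p = 0.0019), CYCS at 0.60 (adjusted p = 0.014), TTC19 at 0.64 (adjusted p = 0.024), TMEM126B at 0.65 (adjusted p = 0.041) and SUCLA2 at 0.89 (adjusted p = 0.049). Without Ex4 replicate 1 TFAM, CYCS and TMEM126B passed there at 0.95, 0.55 and 0.64 (adjusted p = 0.022, 0.036 and 0.047). In Ex4 13.8% of all genes passed without WT replicate 1, and 13.8% without Ex4 replicate 1. COXFA4, formerly NDUFA4 and by its present name outside the rule, was at 0.034 and -0.25, with no call.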

How the data were processed

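Total RNA of 9 samples was hybridised to Affymetrix arrays of 54675 probe sets, 62 of them controls. The authors deposited linear signal intensity values from MAS5 (named in the submitters' processing notes, per the labels); the trimmed mean (percentiles 2 to 98) ran from 1493 to 1495 over the arrays. The signal values need no genome build, and promoter coordinates are on GRCh38.p14. No per-array depth exists for arrays, so their number, 3 a group, limits the precision.

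Values were analysed as log2(signal + 16) from these intensities. Probe sets with a mean above percentile 40 of the non-control probe sets were tested (32768), and the brightest probe set naming a gene alone represented it. Symbols came from the platform annotation (41091 probe sets with 1 symbol, 1801 with several, 11721 with none), updated through RefSeq. limma (version 3.58.1 in R 4.3.3) was fitted to all 9 arrays with a variance trend, and p-values were Benjamini-Hochberg adjusted over all tested probe sets at 0.05. A fold change on this scale understates that of dim genes. On simulated data this fit recovered 16% of 2-fold and 70% of 4-fold changes for Ex4 against WT, and 11% and 68% for LQ against WT. The simulation had independent noise and changed a smaller share of probe sets than passed here in LQ. Its rates may therefore differ from those of the fit to the real arrays. An exact permutation test of 3 against 3 arrays cannot go below p = 0.1.

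Named genes were members that passed in any comparison, in each complex the 2 brightest and those with the largest change either way in each mutant, all SDH genes, sets of paralogues, ATP5IF1, and from other lists up to 4 that passed or else the largest change each way. Genes named beyond that rule (such as NDUFS4, NDUFS6, NDUFA12, NDUFS1, NDUFB10, ATP5MG and ATP5F1E) were chosen after their values were seen. The members and lists were chosen with earlier results of these data known. Alternatives covered the pseudocount, scaling, filter, variance trend, arrays in the fit, array weights, a replicate block, the probe set of a gene, the threshold and each array left out. COXFA4L2, outside the rule, was below the array median on all 9 arrays.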

Additional observations from a re-analysis of the deposited data

How the results depend on the processing

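The counts of members that passed depended on the setting, as did the share of all genes that passed, given in brackets. For Ex4 against WT the count of 0 became 14 after median-centring of the arrays (19.3%) and 11 with array weights (18.3%), and ran from 0 to 8 when one array was left out (0% to 13.8%). For LQ against WT the count of 2 (7.32%) became 1 with a pseudocount of 1 (6.93%), 1 after quantile normalization (3.41%), 26 after centring (30.2%), 0 without the filter (3.34%), 0 without the variance trend (1.24%), 15 with array weights (28.6%), 6 when only the arrays compared were fitted (12.6%), 1 when probe sets of a gene were averaged (7.88%) and 0 at a minimum of 2-fold (4.16%). It ran from 0 to 12 when one array was left out (0.0214% to 17.8%). For both mutants the count of 3 (12.9%) became 27 after centring (34.8%), 5 with a filter at percentile 60 (16.1%), 0 without the trend (4.61%), 16 with array weights (30.2%) and 0 at a minimum of 2-fold (5.80%), and ran from 0 to 12 (0.0499% to 23.1%). With the replicate number as a block that count was 7 (13.5%), while the counts for Ex4 and LQ stayed at 0 and 2. The deviations of arrays with the same number correlated at -0.083 to 0.19. Arrays of different numbers were not compared, so these values cannot show whether the numbers pair the samples. The medians of the members moved to 0.49 in Ex4 and 0.53 in LQ after centring; other settings moved them by less than 1 SD between arrays, 0.19. The cause of these changes was not tested.

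With probe sets of no shared-sequence suffix the sign turned for 13 gene values, the log2 changes then being ATP5PB in Ex4 -0.19, ATP5PB in LQ -0.83, ATP5PB in both mutants -0.51, NDUFB2 in Ex4 -0.52, NDUFB2 in LQ -0.67, NDUFB1 in Ex4 -0.35, NDUFB1 in LQ -0.64, COX4I1 in Ex4 0.60, COX4I1 in LQ 0.93, ATP5IF1 in LQ 0.055, TMEM126B in Ex4 -0.32, TMEM126B in LQ -0.42, TMEM126B in both mutants -0.37. With all tested probe sets of a gene averaged the sign turned for 11 gene values, the log2 changes then being ATP5PB in LQ -0.18, ATP5PB in both mutants -0.052, NDUFB2 in Ex4 -0.30, NDUFB2 in LQ -0.40, NDUFB1 in Ex4 -0.14, NDUFB1 in LQ -0.24, COX4I1 in Ex4 0.029, COX4I1 in LQ 0.17, ATP5MC3 in Ex4 0.13, ATP5MC3 in LQ 0.073, ATP5IF1 in LQ 0.073. With quantile normalization the sign turned for 9 gene values, the log2 changes then being NDUFB2 in Ex4 -0.026, NDUFA3 in Ex4 -0.037, UQCRC1 in LQ -0.15, COX6A1 in LQ 0.0039, ATP5F1A in Ex4 0.012, ATP5F1A in LQ 0.17, ATP5MK in Ex4 0.032, COX6A2 in LQ 0.095, COXFA4 in Ex4 -0.067. After median-centring of the arrays the sign turned for 35 gene values, the log2 changes then being NDUFB11 in Ex4 0.030, NDUFB11 in LQ 0.13, SDHA in Ex4 0.39, SDHC in Ex4 0.33, UQCR10 in Ex4 0.44, UQCR10 in LQ 0.36, UQCRC1 in Ex4 0.32, UQCR11 in Ex4 0.47, UQCR11 in LQ 0.24, COX6A1 in LQ 0.45, COX4I1 in Ex4 0.17, COX4I1 in LQ 0.33, ATP5F1A in Ex4 0.43, ATP5F1A in LQ 0.57, ATP5MK in Ex4 0.46, ATP5MK in LQ 0.37, ATP5F1D in Ex4 0.22, ATP5F1D in LQ 0.40, ATP5MC1 in Ex4 0.23, ATP5MC1 in LQ 0.22, COX4I2 in LQ 0.14, COX6A2 in LQ 0.15, COX6B1 in Ex4 0.42, COX6B1 in LQ 0.20, COX7A2 in Ex4 0.36, COX7A2 in LQ 0.21, COX7A2L in LQ 0.49, COX7B in LQ 0.44, ATP5MC3 in Ex4 0.30, ATP5MC3 in LQ 0.39, ATP5IF1 in Ex4 0.30, ATP5IF1 in LQ 0.48, COXFA4 in LQ 0.33, DLD in Ex4 0.35, DLD in LQ 0.23. With array weights the sign turned for 3 gene values, the log2 changes then being UQCRC1 in LQ -0.035, COX6A1 in Ex4 -0.019, COX6B1 in Ex4 0.0035. When one array was left out the sign turned in at least 1 fit for ATP5F1A in Ex4 -0.16 to 0.018, ATP5F1A in LQ -0.11 to 0.070, ATP5MC3 in Ex4 -0.38 to 0.053, ATP5MK in Ex4 -0.13 to 0.080, COX4I2 in LQ -0.70 to 0.047, COX6A1 in Ex4 -0.19 to 0.17, COX6A1 in LQ -0.35 to 0.016, COX6B1 in Ex4 -0.21 to 0.13, COX7A2 in Ex4 -0.35 to 0.054, COX7A2L in Ex4 -0.17 to 0.43, COX7A2L in LQ -0.44 to 0.16, COXFA4 in Ex4 -0.045 to 0.13, NDUFA3 in Ex4 -0.33 to 0.32, NDUFB1 in Ex4 -0.045 to 0.16, NDUFB2 in Ex4 -0.087 to 0.13, NDUFB2 in LQ -0.012 to 0.20, SDHA in Ex4 -0.25 to 0.090, SDHC in Ex4 -0.45 to 0.11, UQCR10 in Ex4 -0.24 to 0.056, UQCR11 in Ex4 -0.27 to 0.13, UQCRC1 in LQ -0.070 to 0.078; these are the lowest and highest log2 changes over the fits.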
